A study of Homo sapiens with 6 samples.

Results

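Ribosomes are assembled in the nucleolus, where RNA polymerase I transcribes the ribosomal RNA precursor and a large set of proteins cleaves, modifies and folds it. Box C/D and box H/ACA ribonucleoproteins use small nucleolar RNAs (snoRNAs) as guides to methylate ribose groups and to convert uridine to pseudouridine. The small subunit processome and the large subunit assembly factors then build the pre-ribosomal particles, and cells that grow and divide fast are known for large nucleoli. A list of 45 genes of this machinery, chosen by name, was followed here in papillary thyroid carcinoma cells. It holds 11 genes of RNA polymerase I and its transcription, 4 nucleolar phosphoproteins, 3 box C/D proteins, 4 box H/ACA proteins, 12 small subunit factors and 11 large subunit factors, out of 58735 genes in the deposited table.

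The TPC-1 cell line comes from a human papillary thyroid carcinoma. Its wild strain, called TPC-1 here, was sequenced in 3 libraries. Another 3 came from *RRM2*-OE-TPC-1, the same line after infection with a lentivirus carrying full-length *RRM2*, the small subunit of ribonucleotide reductase, and selection with puromycin. The wild strain had neither the virus nor the drug, so that the effect of *RRM2* and that of infection and selection cannot be told apart. The methods give biological triplicates for each line, and nothing says that more than 1 infected line was made. The genotype field of *RRM2*-OE-TPC-1 replicates 2 and 3 reads RRM3 and RRM4, whereas all 3 titles give *RRM2*. Levels are in FPKM (fragments per kilobase of exon, scaled to a depth for each library), with between 14317091 and 17084067 reads on genes per library. *RRM2* itself had 9.17, 9.05 and 8.52 FPKM in TPC-1 and 50.4, 47.5 and 47.2 FPKM in *RRM2*-OE-TPC-1, so that it was high in every library titled as overexpressing. Of the thyroid markers, *PAX8* (69.3 ± 1.84 and 58.5 ± 1.92 FPKM, SD, n = 3 each) and *FOXE1* (4.30 ± 0.107 and 3.19 ± 0.0799 FPKM) were present, whereas *TG*, *TSHR* and *SLC5A5* stayed near 0 and *NKX2-1* was listed at 0. Markers of other cell types were low, and some moved with the groups. The summed endothelial markers lay between 0.873 and 1.05 FPKM in TPC-1 and between 0.0667 and 0.115 FPKM in *RRM2*-OE-TPC-1. The fall of this sum was that of *PECAM1*, with means of 0.924 FPKM in TPC-1 and 0.0588 FPKM in *RRM2*-OE-TPC-1. *VWF* went the other way at levels near 0, with means of 0.00577 and 0.0325 FPKM in the same order. The leukocyte sum lay between 0.349 and 0.410 and between 0.107 and 0.183 FPKM, the parafollicular sum between 0.184 and 0.286 and between 0.0527 and 0.0724 FPKM, and the fibroblast sum between 2.78 and 3.16 and between 2.78 and 2.94 FPKM. *CD3E*, *CALCA*, *COL1A2* and *DCN* were listed at 0 in every library, but other genes of the same lists were not. The mean of *PDGFRB* was 2.12 FPKM in TPC-1 and 2.37 FPKM in *RRM2*-OE-TPC-1. In the same order, *COL1A1* had 0.816 and 0.501 FPKM, *CD14* 0.386 and 0.146 FPKM, and *CALCB* 0.199 and 0.0331 FPKM. In such bulk libraries of a cell line, fewer cells with the RNA of a marker and less of it per cell cannot be told apart.

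Most members of the nucleolar list rose with *RRM2* overexpression. The filter (FPKM of at least 0.5 and at least 10 reads in at least 3 libraries) passed 44 of the 45 members and 13621 genes in all. Of these 44, 41 were called higher and 1 was called lower (adjusted p of 0.05 or less from limma) and 2 were not called. The same test called 34.9% of all genes tested higher and 32.7% lower. The log2 fold changes, which are on the log2(FPKM + 0.1) scale, ran from -0.23 for *POLR1D* to 1.33 for *RRP9*, with a median of 0.53. Over all genes tested the median was 0.01, and 30 members lay above 0.36, the upper quartile of all genes. The change was a shift of many genes by a modest amount. Of the 44, 4 members (*RRP9*, *NOL6*, *TCOF1* and *DDX18*) were called higher with a log2 fold change of 1 or more. Of all 13621 genes tested, 610 (4.48%) were called higher at that size. In 42 members every *RRM2*-OE-TPC-1 library was above every TPC-1 library, and in 1 every library was below, against 37.3% and 35% of all genes tested.

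**Figure D1:**
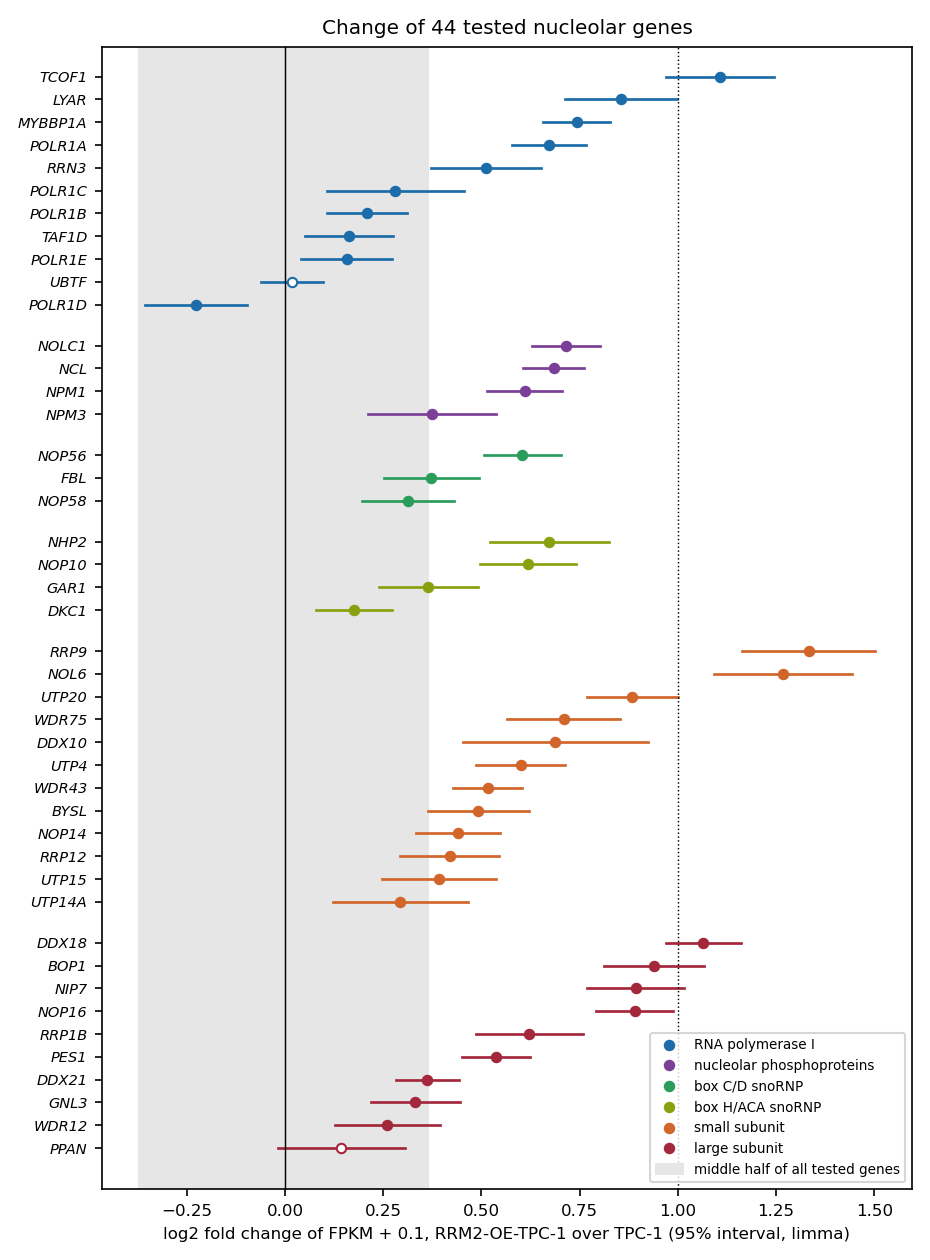
Log2 fold change of FPKM + 0.1 between *RRM2*-OE-TPC-1 and TPC-1 for the 44 tested members, grouped by role, with 95% intervals from limma. Filled points had an adjusted p of 0.05 or less, whereas open points (*UBTF* and *PPAN*) did not, and the grey band runs from -0.37 to 0.36, the quartiles of all tested genes. *POLR1D* is the only member whose interval lies below 0.

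*MYC* encodes the transcription factor best known for driving ribosome biogenesis, and it binds the E-box CACGTG. The E-box was therefore searched in RefSeq promoters (250 bases before to 50 bases after the start, build GRCh38.p14), which were at hand for 37 of the 45 members. It was present in 13 of these 37 (35.1%), in 35 of 129 promoters of other ribosome biogenesis genes (27.1%), in 10.3% of 9521 promoters of tested genes and in 7.43% of all 27305, with the first promoter listed for each gene. For 10 of the 37 members other promoters are listed as well, and with these the E-box was in 17 members (45.9%). The added ones were *GNL3*, *LYAR*, *GAR1* and *DDX21*. With all listed promoters it was in 12.8% of tested genes. Of the 129 other ribosome biogenesis genes, 16 have several promoters listed, and the count with an E-box stayed at 35 (27.1%). A match is a description of these letters and no sign that a factor binds there. The windows of 30 bases below run 5′ to 3′ on the strand of the gene, with the E-box in capitals. They are shown for the members described with their values in each library (*RRP9*, *NOL6*, *UTP14A* and *NOP2*) and for those of other roles with a match (*MYBBP1A*, *FBL* and *NOP10*, which holds 2).
*RRP9* (chr3:51941892-51941921, minus strand): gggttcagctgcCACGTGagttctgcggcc
*NOL6* (chr9:33473894-33473923, minus strand): ggcatttccgccCACGTGggaagctatgag
*UTP14A* (chrX:129905914-129905943, plus strand): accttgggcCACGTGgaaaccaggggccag
*NOP2* (chr12:6568242-6568271, minus strand): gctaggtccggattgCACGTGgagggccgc
*MYBBP1A* (chr17:4555340-4555369, minus strand): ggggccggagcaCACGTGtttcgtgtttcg
*FBL* (chr19:39846356-39846385, minus strand): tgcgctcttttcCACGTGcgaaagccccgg
*NOP10* (chr15:34343289-34343318, minus strand): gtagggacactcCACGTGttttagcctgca
*NOP10* (chr15:34343130-34343159, minus strand): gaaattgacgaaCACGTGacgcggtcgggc

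In these windows the first base of the E-box lay at position -5 from the RefSeq start in *RRP9* and at 14 in *NOL6*, where negative positions lie before the start. It lay at -241 in *UTP14A*, 36 in *NOP2*, 28 in *MYBBP1A*, 7 in *FBL*, and -170 and -11 in *NOP10*. The other members with a match were *PES1*, *NOP14*, *BYSL*, *WDR43*, *UTP4* and *UTP20*. To compare a promoter with an E-box and one without, the 199 bases just upstream of the start are given for *UTP20*, one of the members that rose most, and for *POLR1D*, the member that fell, neither of which covers an annotated exon. The E-box of *UTP20* is in capitals, and this string does not occur in the stretch of *POLR1D*. The pair was chosen by how the genes changed and does not stand for the rest. *NIP7* and *NOP16* (log2 fold change 0.89 each) rose as much as *UTP20* (0.88) with no E-box in the first promoter listed. *UTP14A*, which has one, rose by 0.29.
*UTP20* (chr12:101279905-101280103, plus strand): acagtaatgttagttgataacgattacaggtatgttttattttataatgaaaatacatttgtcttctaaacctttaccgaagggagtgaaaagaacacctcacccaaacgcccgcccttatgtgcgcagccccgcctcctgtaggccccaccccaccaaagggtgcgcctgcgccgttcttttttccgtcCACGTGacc
*POLR1D* (chr13:27620543-27620741, plus strand): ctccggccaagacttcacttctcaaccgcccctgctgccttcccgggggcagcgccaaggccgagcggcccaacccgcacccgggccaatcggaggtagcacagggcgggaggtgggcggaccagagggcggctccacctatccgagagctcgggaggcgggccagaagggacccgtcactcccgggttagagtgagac

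Among members with a promoter at hand, the 12 tested ones with an E-box had a median log2 fold change of 0.57 (from 0.29 to 1.33), and the 24 without had a median of 0.38 (from -0.23 to 0.89). With all listed promoters the medians were 0.53 for 16 members and 0.45 for 20, so that most of the gap went. These are descriptions, and the ranges overlap. Members with no promoter at hand are in neither group: *TCOF1* (1.11), *DDX18* (1.07), *BOP1* (0.94), *NOLC1* (0.72), *RRP1B* (0.62), *RRP12* (0.42), *NOP58* (0.31) and *POLR1E* (0.16). The medians and ranges therefore depend on which promoters were at hand. Other letter strings were searched on both strands, none of which contains another. The ETS string CCGGAAG was in 12 of 37 members (32.4%) and in 19.9% of promoters of tested genes. The GC box GGGCGG was in 27 members (73.0%) and in 71.2% of promoters of tested genes. CCAAT was in 15 members (40.5%, against 36.6%), and TATAAA was in 1 (2.70%, against 5.19%). *MYC* itself had 128, 125 and 123 FPKM in TPC-1 and 70.3, 71.7 and 75.4 FPKM in *RRM2*-OE-TPC-1, so that its libraries did not overlap. This is its mRNA alone, since these libraries do not measure protein. Its log2 fold change was -0.78 (SE 0.037, adjusted p = 8.92e-07 from limma).

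RNA polymerase I and its transcription factors were the most divided group. Of the 11 genes, 9 were called higher, 1 lower and 1 not called, with a median log2 fold change of 0.28. *TCOF1* (ENSG00000070814, chr5:150357629-150400308 on GRCh38) encodes treacle, a nucleolar scaffold that brings in RNA polymerase I and its factors. It had 6.97, 6.13 and 6.70 FPKM in TPC-1 and 13.6, 14.6 and 14.7 FPKM in *RRM2*-OE-TPC-1. Its libraries were well apart, and the log2 fold change was 1.11 (SE 0.060, adjusted p = 1.68e-06 from limma). *POLR1D* (ENSG00000186184, chr13:27620742-27744237) encodes a small subunit that RNA polymerase I shares with RNA polymerase III. It had 7.93, 8.06 and 7.64 FPKM in TPC-1 and 6.31, 6.88 and 6.98 FPKM in *RRM2*-OE-TPC-1. It was the only member lower in every *RRM2*-OE-TPC-1 library, and its log2 fold change was -0.23 (SE 0.056, adjusted p = 0.00708 from limma). *UBTF* (ENSG00000108312, chr17:44205033-44221626) encodes the upstream binding factor that keeps ribosomal DNA open. It had 22.1, 22.1 and 22.3 FPKM in TPC-1 and 22.8, 21.8 and 22.7 FPKM in *RRM2*-OE-TPC-1. The groups overlapped, the log2 fold change was 0.018 (95% interval -0.061 to 0.096, adjusted p = 0.660 from limma), and the estimate turned to -0.040 when libraries were scaled to equal totals.

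The other genes of this group differed in size rather than direction. *POLR1A*, the largest catalytic subunit, had a log2 fold change of 0.67, and *POLR1B*, the second largest, had 0.21. *POLR1C*, which like *POLR1D* is shared with RNA polymerase III, had 0.28, and *POLR1E*, a peripheral subunit, had 0.16. *RRN3*, the factor that makes the polymerase competent to initiate, had 0.51. *TAF1D*, a subunit of the promoter selectivity factor, had 0.16. The nucleolar proteins *MYBBP1A* and *LYAR* had 0.74 and 0.86. All 8 were called, but 2 of the calls were weak. That of *POLR1E* (adjusted p = 0.0232 from limma) was lost without TPC-1 replicate 1 (adjusted p = 0.0747), without TPC-1 replicate 2 (0.0685), without *RRM2*-OE-TPC-1 replicate 1 (0.0525) and without *RRM2*-OE-TPC-1 replicate 2 (0.0730). That of *TAF1D* (adjusted p = 0.0173 from limma) was lost without TPC-1 replicate 1 (0.0522) and, separately, without replicate 2 of *RRM2*-OE-TPC-1 (0.0657). Both calls were also lost when libraries were scaled to equal totals (0.141 and 0.0937).

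The 4 nucleolar phosphoproteins held the 2 most abundant mRNAs of the list, *NPM1* and *NCL*, and all were called higher, with a median log2 fold change of 0.65. *NPM1*, which encodes nucleophosmin, a histone and ribosomal protein chaperone, had the highest level of any member at 209.6 ± 6.78 FPKM in TPC-1 (SD, n = 3) and a log2 fold change of 0.61. The pseudogene *NPM1P27* moved alike, from 15.8 to 24.4 FPKM (log2 fold change 0.63), and reads that both copies share could have been split between them, which makes the level of *NPM1* uncertain. *NCL*, which encodes nucleolin, had a log2 fold change of 0.68. *NOLC1* (ENSG00000166197, chr10:102152176-102163871), the coilin-binding phosphoprotein Nopp140 that escorts snoRNPs, had 43.7, 40.6 and 42.9 FPKM in TPC-1 and 70.2, 70.8 and 68.2 FPKM in *RRM2*-OE-TPC-1. It changed most in the group, by 0.72 on the log2 scale (SE 0.038, adjusted p = 1.48e-06 from limma). *NPM3* (ENSG00000107833, chr10:101781325-101783413), a paralogue of nucleophosmin, had 22.1, 21.4 and 23.9 FPKM in TPC-1 and 32.4, 27.7 and 27.5 FPKM in *RRM2*-OE-TPC-1. It changed least, by 0.37 (SE 0.070, adjusted p = 0.00173 from limma), and 1 of its *RRM2*-OE-TPC-1 libraries stood above the others.

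All 7 core proteins of the snoRNA particles that are on the member list were called higher, with medians of 0.37 for box C/D and 0.49 for box H/ACA. *NOP56* (ENSG00000101361, chr20:2652145-2658393) and *NOP58* (ENSG00000055044, chr2:202265716-202303666) are the paired scaffold proteins of the box C/D particle. *NOP56* had 30.5, 27.9 and 30.4 FPKM in TPC-1 and 45.9, 44.8 and 44.4 FPKM in *RRM2*-OE-TPC-1, a log2 fold change of 0.60 (SE 0.042, adjusted p = 6.13e-06 from limma). *NOP58* had 35.3, 31.5 and 35.4 FPKM in TPC-1 and 43.4, 42.4 and 41.1 FPKM in *RRM2*-OE-TPC-1, a log2 fold change of 0.31 (SE 0.051, adjusted p = 0.000765 from limma). Neither gene's groups overlapped. *FBL*, the methyltransferase fibrillarin, had a log2 fold change of 0.37. In the box H/ACA particle, *NHP2* (ENSG00000145912, chr5:178149460-178153967), an RNA-binding core protein, had 26.0, 24.5 and 22.9 FPKM in TPC-1 and 36.0, 39.3 and 42.0 FPKM in *RRM2*-OE-TPC-1. Its log2 fold change was 0.67 (SE 0.066, adjusted p = 4.10e-05 from limma), and 27.4% of its exon bases lie opposite exons of *RMND5B*. *DKC1* (ENSG00000130826, chrX:154762742-154777689), the pseudouridine synthase dyskerin, had 59.1, 54.3 and 57.6 FPKM in TPC-1 and 66.6, 62.5 and 64.2 FPKM in *RRM2*-OE-TPC-1. The groups were apart by less than in the other core proteins, at 0.18 (SE 0.042, adjusted p = 0.00597 from limma), and *GAR1* and *NOP10* had log2 fold changes of 0.36 and 0.62.

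Every one of the 12 small subunit factors was called higher, with a median log2 fold change of 0.56. *RRP9* (ENSG00000114767, chr3:51933430-51941941), the U3 snoRNP protein that ties the U3 snoRNA to early processing, had 10.1, 9.04 and 9.42 FPKM in TPC-1 and 26.6, 24.0 and 22.0 FPKM in *RRM2*-OE-TPC-1. The groups were far apart, with the largest log2 fold change of the 44 members tested, 1.33 (SE 0.073, adjusted p = 1.84e-06 from limma). *NOL6* (ENSG00000165271, chr9:33461441-33473930), a structural protein of the processome, had 10.2, 8.67 and 10.7 FPKM in TPC-1 and 24.6, 22.8 and 23.9 FPKM in *RRM2*-OE-TPC-1. All 3 *RRM2*-OE-TPC-1 libraries were far above the wild strain, and the log2 fold change was 1.27 (SE 0.076, adjusted p = 2.77e-06 from limma). *UTP14A* (ENSG00000156697, chrX:129906121-129929761), which activates the helicase that releases U3, had 9.24, 7.51 and 8.51 FPKM in TPC-1 and 10.2, 10.7 and 10.1 FPKM in *RRM2*-OE-TPC-1. It changed least of the 12, and the spread within TPC-1 was large beside the difference, at 0.29 (SE 0.075, adjusted p = 0.00821 from limma). Between these lay the processome proteins *UTP20* (0.88), *WDR75* (0.71), *UTP4* (0.60), *WDR43* (0.52), *NOP14* (0.44) and *UTP15* (0.39), the helicase *DDX10* (0.69), and *BYSL* (0.49) and *RRP12* (0.42), which act later on the pre-40S particle.

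Of the 11 large subunit factors, 10 were tested and 9 were called higher, with a median log2 fold change of 0.58. *DDX18* (ENSG00000088205, chr2:117814650-117832379), an RNA helicase of early pre-60S particles, had 14.9, 15.2 and 16.3 FPKM in TPC-1 and 32.8, 32.4 and 32.2 FPKM in *RRM2*-OE-TPC-1. Its *RRM2*-OE-TPC-1 libraries were nearly level with each other, and the log2 fold change was 1.07 (SE 0.041, adjusted p = 3.36e-07 from limma). The 3 genes of the PeBoW complex, which is needed to process the precursor of 28S and 5.8S rRNA, were unequal: *BOP1* had a log2 fold change of 0.94, *PES1* had 0.54 and *WDR12* had 0.26. *NIP7* and *NOP16*, both pre-60S assembly factors, had 0.89 each, *RRP1B* had 0.62, the helicase *DDX21* had 0.36 and the nucleolar GTPase *GNL3* (nucleostemin) had 0.33. *PPAN* (ENSG00000130810, chr19:10106289-10111634), a pre-60S factor, had 3.55, 3.41 and 3.74 FPKM in TPC-1 and 3.78, 4.16 and 3.91 FPKM in *RRM2*-OE-TPC-1. Its libraries did not overlap but lay close, and it was not called (log2 fold change 0.14, 95% interval -0.018 to 0.305, adjusted p = 0.101 from limma). Of its exon bases, 59.8% are shared on the same strand with other genes, 56.0% with the readthrough gene *PPAN-P2RY11*, which was listed at 0 in all 6 libraries.

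*NOP2* (ENSG00000111641, chr12:6556863-6568691), the methyltransferase that modifies a cytosine of 28S rRNA, was the member that missed the filter. It had 0.192, 0.317 and 0.214 FPKM in TPC-1 and 0.251, 0.349 and 0.228 FPKM in *RRM2*-OE-TPC-1, from 15 to 28 reads a library. The groups overlapped. Its levels were below the FPKM minimum, and with no filter on low values it was not called (log2 fold change 0.14, SE 0.30, adjusted p = 0.762 from limma). On the same strand, 54.4% of its exon bases are shared with the gene *AC006064.6*, which had at most 3 reads in a library. The part of this overlap in the low value was not tested.

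**Figure D2:**
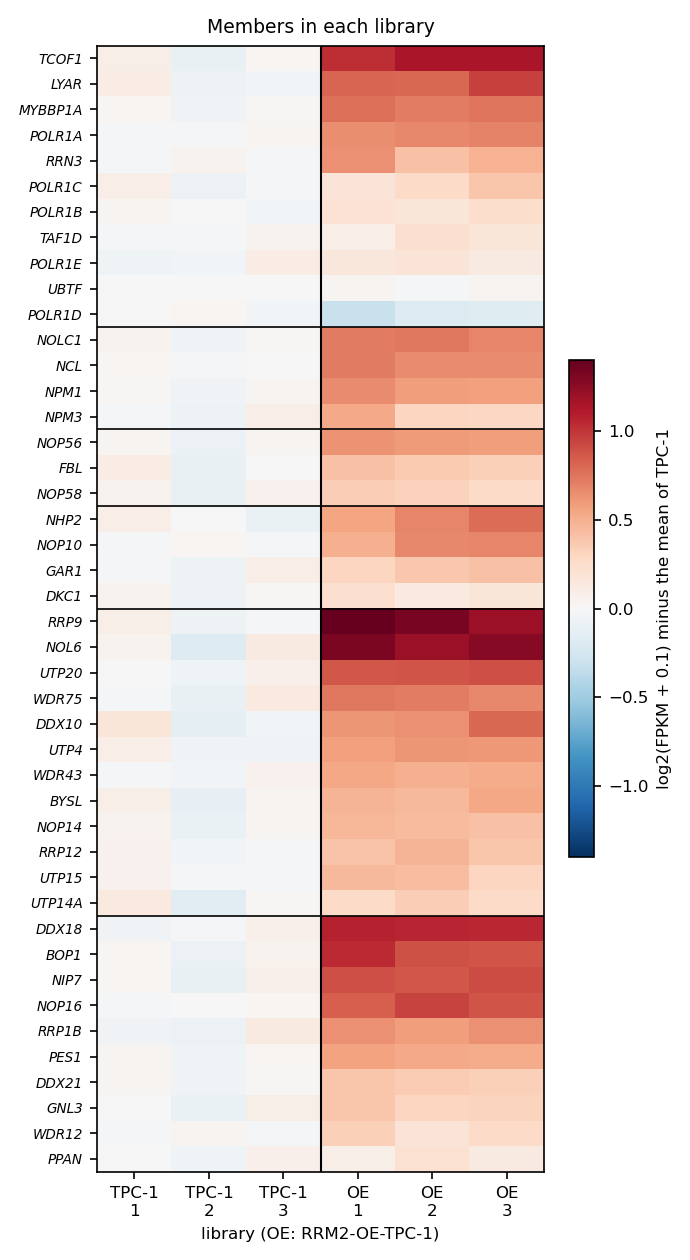
Each of the 44 tested members (rows, by role) in each of the 6 libraries (columns), as log2(FPKM + 0.1) minus the mean of the 3 TPC-1 libraries. Red is higher and blue is lower than that mean, and the 3 *RRM2*-OE-TPC-1 columns are red in most rows, with *UBTF* near white and *POLR1D* blue.

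Replicates were close. The median SD over members was 4.77% of the mean for the wild strain and 3.09% of the mean with *RRM2* overexpression, with the largest values of 11.3% for *DDX10* and 9.55% for *RRP9*. TPC-1 replicate 2 had the lowest value of its group in 34 of the 44 members. Without it, 40 members were called higher and 1 lower, with a median log2 fold change of 0.52. Added over the members, the level was 1184, 1120 and 1183 FPKM in TPC-1 and 1751, 1709 and 1708 FPKM in *RRM2*-OE-TPC-1, a ratio of means of 1.48. Without the abundant *NPM1* and *NCL* the ratio was 1.45. By role the ratio was 1.35 for RNA polymerase I, 1.34 for box C/D, 1.39 for box H/ACA, 1.52 for the large subunit, 1.55 for the phosphoproteins and 1.60 for the small subunit.

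**Figure D3:**
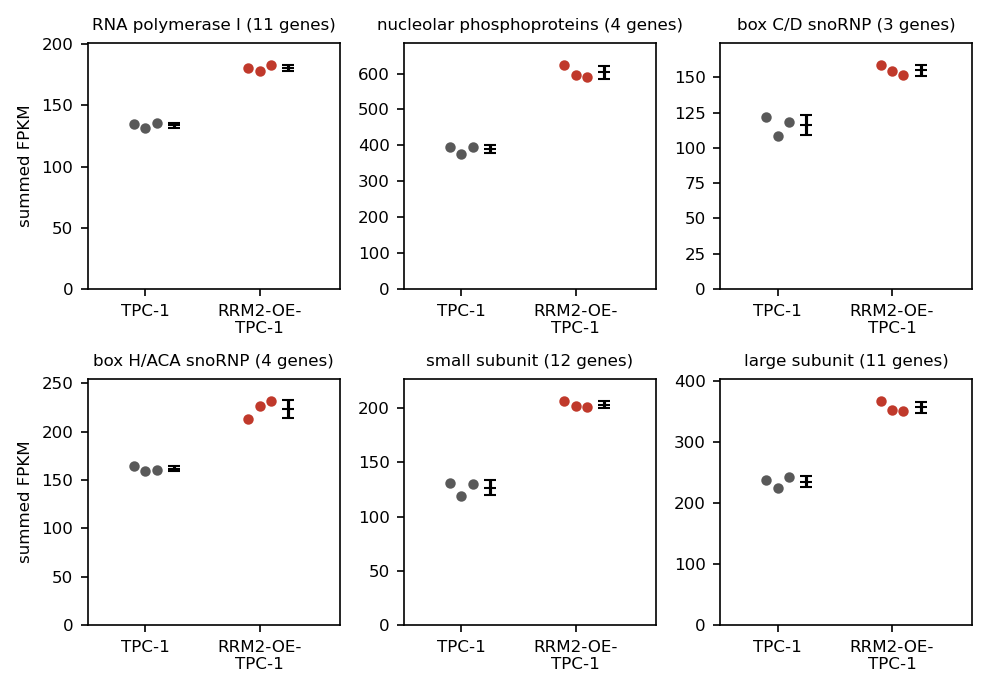
Summed FPKM of the members of each role in every library (points), with the mean and SD of the 3 libraries beside them, on axes that start at 0. In each of the 6 roles the 3 *RRM2*-OE-TPC-1 libraries lie above the 3 TPC-1 libraries, with ratios of means from 1.34 (box C/D) to 1.60 (small subunit).

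Exons of some members overlap those of genes on the other strand, and whether the counting used strand is not given in the sources used here. The share was 20.2% for *NIP7* (opposite *COG8*), 20.0% for *NOP16*, 18.2% for *POLR1C*, 17.1% for *NOP14* (opposite *NOP14-AS1*), 6.09% for *RRP12* and 5.40% for *PES1*, so their values are less certain. For *TAF1D* it was 17.3% over both strands. The 33 members that share less than 5% of exon bases with any gene held 31 called higher, 1 called lower and 1 not called, with a median log2 fold change of 0.60.

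The rest of the pathway was read from a second list of 152 ribosome biogenesis genes, of which 151 were tested. Of these, 126 were called higher (83.4%, against 34.9% of all genes tested), 6 lower (3.97%, against 32.7%) and 19 not called. Their median log2 fold change was 0.45. The small subunit factors were the most uniform, with 45 of 48 called higher, followed by 49 of 57 large subunit factors, 10 of 13 RNA polymerase I genes, 16 of 23 genes of the exosome and RNase MRP, and 6 of 10 assembly factors of snoRNPs. The RNA polymerase I genes of this list include *POLR2E*, *POLR2F*, *POLR2H*, *POLR2K* and *POLR2L*, which RNA polymerases I, II and III share. Each of these was called higher. Passing a log2 fold change of 1 were *GRWD1*, *CD3EAP*, *POP1*, *LAS1L* and *PWP2*. With a pseudocount of 1, *CD3EAP* (0.91), *LAS1L* (0.92) and *PWP2* (0.68) were called but below 1, and with libraries scaled to equal totals so were *LAS1L* and *PWP2* (0.96 each). *LAS1L* was also below 1 without TPC-1 replicate 2 (0.98), and *PWP2* without TPC-1 replicate 1 (0.99), replicate 2 of *RRM2*-OE-TPC-1 (0.91) or its replicate 3 (0.999). *GRWD1*, a chaperone of a large subunit protein, rose most, from 9.18, 8.51 and 8.94 FPKM to 21.5, 19.6 and 20.3 FPKM (log2 fold change 1.20). *CD3EAP*, also called *POLR1G*, another RNA polymerase I subunit, had 2.46, 1.88 and 2.47 FPKM in TPC-1 and 5.65, 5.18 and 4.54 FPKM in *RRM2*-OE-TPC-1 (1.15). *POP1*, the scaffold protein of RNase MRP, had 10.4 ± 0.319 FPKM in TPC-1 and 22.5 ± 0.161 FPKM in *RRM2*-OE-TPC-1 (3 libraries each, ± SD, 1.11). In each of the 3 genes the groups were apart. *PWP2*, a processome protein, had a log2 fold change of 1.01 at only 1.21 FPKM in TPC-1, and *SHQ1*, an assembly chaperone of dyskerin, had 0.67 at 1.28 FPKM.

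The 6 genes of this list called lower, a share of 3.97% against 32.7% of all genes tested, were *NOP53*, *RSL24D1*, *PIH1D1*, *RPP38*, *TAF1B* and *NOB1*. *NOP53*, which brings the exosome to pre-60S particles, fell most, from 57.5, 52.1 and 55.5 FPKM to 38.1, 37.3 and 35.3 FPKM (log2 fold change -0.58, SE 0.047, adjusted p = 1.51e-05 from limma). *RSL24D1*, another pre-60S protein, had a log2 fold change of -0.50, and *PIH1D1*, of the chaperone complex that assembles box C/D particles, had -0.35. The changes of *RPP38* (-0.24), a subunit of RNase P and RNase MRP, and of *TAF1B* (-0.17), of the promoter selectivity factor, were smaller. *NOB1*, the nuclease that cuts the 3′ end of 18S rRNA, had -0.15. The call of *TAF1B* (adjusted p = 0.0367 from limma) was lost without each single library except *RRM2*-OE-TPC-1 replicate 1, at adjusted p between 0.0550 and 0.117. That of *RPP38* (0.0150) was lost without TPC-1 replicate 3 (0.0553) or *RRM2*-OE-TPC-1 replicate 2 (0.0532).

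Genes for the proteins of the finished ribosome had a median change near 0. Of 82 cytosolic ribosomal protein genes, 79 were tested, with a median log2 fold change of 0.01. Of these 79, 20 were called higher (25.3%, against 34.9% of all genes tested), 12 lower (15.2%, against 32.7%) and 47 not called. Their summed level was 17260, 16169 and 16734 FPKM in TPC-1 and 16651, 16898 and 16716 FPKM in *RRM2*-OE-TPC-1, and the groups overlapped. The difference between the lists was not tested, since members were chosen with earlier results known.

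**Figure D4:**
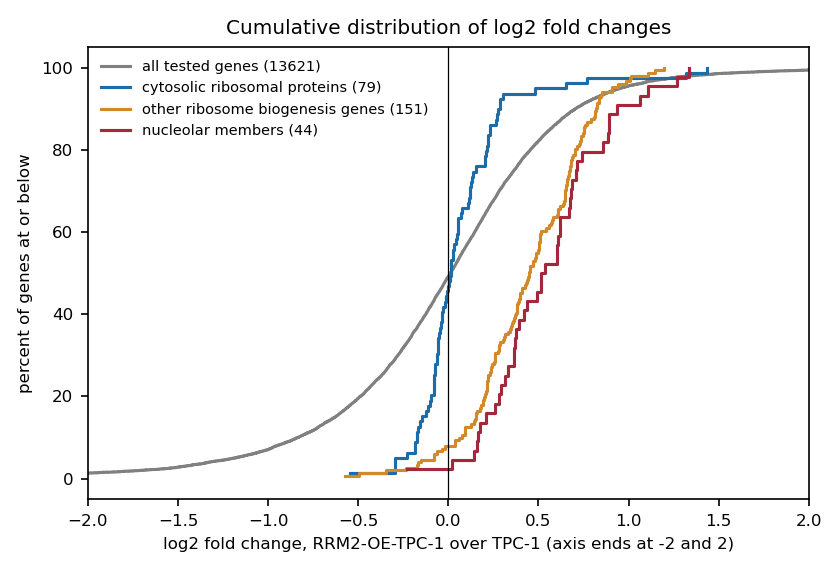
Percent of genes at or below each log2 fold change (*RRM2*-OE-TPC-1 over TPC-1) for all 13621 tested genes, 79 cytosolic ribosomal proteins, 151 other ribosome biogenesis genes and the 44 nucleolar members, on an axis cut at -2 and 2. The curves of the members and of the other biogenesis genes lie to the right, with medians of 0.53 and 0.45, and those of the ribosomal proteins and of all genes cross 50 percent near 0 (medians 0.01 and 0.01).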

How the data were processed

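mRNA of 3 TPC-1 and 3 *RRM2*-OE-TPC-1 libraries was sequenced. The methods describe poly(A) selection, whereas the labels give rRNA depletion followed by RNase R. Per the submitters' processing notes, reads were aligned with HISAT2 2.0.5 and counted with featureCounts 1.5.0. The deposited values are FPKM, which the authors made by dividing counts by gene length and depth. Every identifier and position among the 58735 rows matched GENCODE 29 (GRCh38). After multiplication by gene length, 100% of values were whole reads (tolerance 0.01), and the reads on genes per library, 14317091 to 17084067, were recovered. Mitochondrial genes took 4.29% to 5.89% of them. The depth that the FPKM imply was 1.03, 1.05 and 1.05 times the recovered reads in TPC-1. In *RRM2*-OE-TPC-1 it was 1.01, 1.00 and 0.997 times the recovered reads. This depth was thus not the library total, and scaling to equal totals was run as an alternative.

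Values were tested as log2(FPKM + 0.1) with limma 3.58.1 in R 4.3.3 (lmFit, eBayes with trend, two-sided, Benjamini-Hochberg over 13621 genes). The procedure was also run on simulated reads, whose spread between libraries was set in advance and not taken from these data. Genes needed FPKM of at least 0.5 and 10 reads in 3 libraries. Called means an adjusted p of 0.05 or less. Tables were made with Python 3.11.15 and pandas 2.3.3, and figures with matplotlib 3.10.9. Members and lists were chosen with earlier results of these data known, so counts are read beside all genes and no list was tested. Values per library are given for *RRM2*, *MYC*, the highest and lowest member of each role, members past a log2 fold change of 1, and members not called or not tested. Among the other biogenesis genes, the highest and lowest of each role are named, and *RSL24D1* and *LAS1L* were added after their values were seen. The first promoter listed for a gene was used, and then, after this result was seen, all of them. Same-numbered libraries did not deviate together (correlations over genes of -0.0105, -0.00602 and -0.0550), so replicates were not paired. Alternatives were 2 other pseudocounts, 2 filters, 2 scalings, limma-voom on recovered reads, protein-coding genes only, the replicate block and each library left out. Some marker genes are not reported here.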

Additional observations from a re-analysis of the deposited data

How the results depend on the processing

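With each library left out in turn, between 39 and 41 members were called higher, 1 was called lower, 4 passed a log2 fold change of 1, and the median log2 fold change lay between 0.52 and 0.55. With the replicate number as a block, 41 members were called higher and 1 lower, 124 of the other ribosome biogenesis genes were called higher, and the replicate block changed no call of a member. The median over members moved to 0.47 when libraries were scaled to equal totals, where 39 were called higher and the median of all genes was -0.05, and *UBTF* reversed to -0.040. It moved to 0.60 without members that share 5% or more of their exon bases, an alternative chosen after seeing the data. Over all alternatives, 137 of 139 values of the counts and medians stayed within a set tolerance. For counts this was a ratio to the main count, and it was wide. Members called higher ran from 31, without members that share exon bases, to 41. Other biogenesis genes called lower ran from 4 to 8. Medians were held to the spread of the TPC-1 libraries. Of the values of single genes, 822 of 840 kept their direction and stayed called or not called. The exceptions among single genes were *UBTF* and 17 lost calls of *POLR1E*, *TAF1D*, *TAF1B* and *RPP38*. Without a filter on low values the calls of *POLR1E* and *TAF1B* were lost (adjusted p = 0.0594 and 0.0776 from limma). Every tested member had at least 141 reads in each library, and *NOP2* had 15 to 28. With 3 libraries a group, p-values cover the spread between these libraries only.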

Other observations

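Genes that hold a snoRNA in an intron link the making of the guides to their host's transcription. Of the 45 members, 8 hold annotated snoRNAs (17.8%, against 198 of 11451 tested protein-coding genes, 1.73%): *DKC1*, *GNL3*, *NCL*, *NOP56*, *NOP58*, *PPAN*, *TAF1D* and *WDR43*. Of these 8, 7 were called higher, with a median log2 fold change of 0.32, and the 36 tested members without a snoRNA had a median of 0.61. The snoRNAs themselves had between 0 and 68 reads over all 6 libraries, so that their levels could not be compared.

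Some ribosomal protein genes departed from the flat median of their group, and these were picked after their values were seen. *RPS27L*, a paralogue known as a p53 target, had 5.47 FPKM in TPC-1 and 15.0 FPKM in *RRM2*-OE-TPC-1 (log2 fold change 1.43, adjusted p = 3.43e-07 from limma), and *RPS26* had 52.6 and 131.5 FPKM (1.32, adjusted p = 4.41e-07). *RPL3*, a core protein of the large subunit, had 492.8 and 338.1 FPKM (-0.54, adjusted p = 5.28e-06). Ribosomal protein genes have many processed copies, and reads shared with them make these levels uncertain.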
